A study of Homo sapiens with 12 samples.

Results

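The clustered replication-dependent histone genes were taken as every gene of the count table whose symbol begins with HIST1H, HIST2H, HIST3H or HIST4H. The rule found 73 of 26485 genes, and no measured value entered it. By the letters that follow, 6 are named for linker histone H1, 18 for H2A, 20 for H2B, 14 for H3 and 15 for H4. HIST1H2APS1, HIST2H2BA and HIST2H2BC are pseudogenes in GENCODE v29, and none of them was expressed by the limit below. The HIST1 genes lie on chromosome 6, the HIST2 and HIST3 genes on chromosome 1 and HIST4H4 on chromosome 12, in build hg38. An expressed gene was one with 10 or more counts in 3 or more of 12 libraries, which held for 34 genes (4 H1, 6 H2A, 14 H2B, 3 H3 and 7 H4). The other 39 reached at most 25 counts in any library, and 11 of them had 0 counts everywhere.

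The RNA came from PEO1 and COV362, established human ovarian carcinoma lines, both labelled as parental and grown in the same serum and insulin medium. The 4 groups were PEO1 with 20 nM prexasertib, PEO1 with DMSO vehicle, COV362 with 20 nM prexasertib and COV362 with DMSO, with 3 libraries each, lettered A, B and C. Prexasertib inhibits the checkpoint kinases CHK1 and CHK2, and the length of treatment is not given in the sources used here. Each line is a single cell line, and nothing in the labels says that the replicates were separate cultures, so p-values measure only the spread between these libraries.

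Replication-dependent histone genes supply the H2A, H2B, H3 and H4 cores of new nucleosomes, and the H1 that binds the linker DNA between them, while DNA is copied in S phase. Their usual mRNAs have no introns and no poly(A) tail. They end in a short stem-loop that the protein SLBP binds, and the factor NPAT drives their transcription. Histone transcripts that run past the stem-loop to a downstream signal, or are spliced to a second exon, can carry a poly(A) tail instead, and this form is known from differentiated and arrested cells. The libraries were made with a kit that selects poly(A) RNA, per the labels' protocols. The values below therefore describe the histone RNA that was recovered by such a kit. In bulk RNA, fewer cells carrying a transcript and less RNA per cell cannot be told apart.

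The stem-loop was looked for in the GENCODE v29 transcripts of all 73 genes as a 16-base element, and 27 genes had a transcript that holds it, in 4 forms. For many others the longest listed transcript is shorter than the counted model. Examples are HIST1H2BK (381 of 839 bases), HIST1H1C (642 of 732) and HIST1H4F (312 of 368). Such transcripts may stop before the element, so no match does not show that a gene lacks it. The search also used a fixed pattern that allows few letters to vary, so other forms would be missed. Some genes with transcripts that end past the counted model had no match either. Among them were HIST1H2BF and HIST1H2BJ (727 and 6419 bases past it, as genomic distances). The commonest form stood in 17 genes, here shown for HIST1H2BG, and the form of 5 H4 genes is shown for HIST1H4H. A form found in HIST1H2AG stood in 2 genes. Each line gives the element in capitals with its flanks, 5′ to 3′, as these are the sites where the usual histone mRNA ends.
HIST1H2BG: actcaaaGGCTCTTTTCAGAGCCactcaag
HIST1H4H: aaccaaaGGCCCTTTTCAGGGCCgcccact
HIST1H2AG: aaccaacGGCTCTTTTCAGGGCCacccacg

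Upstream sequences were taken from RefSeq (GRCh38.p14), in which 68 of the 73 symbols matched a single gene and 60 had a promoter of 300 bases. The motifs searched, on both strands, were the octamer ATTTGCAT, which POU2F1 binds and which is known from H2B promoters, CCAAT, which NF-Y binds, and the TATA motif TATAAA. Matches of the last can overlap on opposite strands. The octamer stood in 69.2% of 13 H2B and 68.8% of 16 H2A promoters, in 8.33% of 12 H3 promoters and in 0 of 6 H1 and 0 of 13 H4 promoters, against 1.77% of 35116 promoters of all genes. CCAAT stood in all 47 promoters of H1, H2A, H2B and H3 genes and in 23.1% of those of H4 genes, against 34.6% of all promoters. TATAAA stood in 66.7% of the 60, against 11.5% of all. H2A and H2B neighbours read away from each other, such as HIST2H2AC and HIST2H2BE, have largely the same window. The same motif can then be counted for both types. HIST1H3D, the H3 gene with the octamer, has the same window as HIST1H2AD. The percentages of the types are thus not independent. The upstream sequences of 3 genes on which the results turn are printed with these motifs in capitals, in either orientation, each ending at the base before the RefSeq start. The stretch of HIST1H2BK (chr6:27146859-27147081, minus strand) is the whole of the 223 bases that separate it from HIST1H2AH, which is read the other way. HIST1H2BH (chr6:26251364-26251613, plus strand) and HIST1H4H (chr6:26285535-26285784, minus strand) are shown over 250 bases.
HIST1H2BK: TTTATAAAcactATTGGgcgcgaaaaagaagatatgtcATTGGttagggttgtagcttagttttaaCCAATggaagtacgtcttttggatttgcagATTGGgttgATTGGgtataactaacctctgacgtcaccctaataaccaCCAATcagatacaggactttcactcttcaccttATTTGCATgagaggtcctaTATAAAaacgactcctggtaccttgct
HIST1H2BH: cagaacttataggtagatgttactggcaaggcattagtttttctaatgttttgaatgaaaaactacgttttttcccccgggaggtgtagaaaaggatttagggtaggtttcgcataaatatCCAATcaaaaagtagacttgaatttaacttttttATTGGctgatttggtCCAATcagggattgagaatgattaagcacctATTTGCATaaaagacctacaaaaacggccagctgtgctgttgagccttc
HIST1H4H: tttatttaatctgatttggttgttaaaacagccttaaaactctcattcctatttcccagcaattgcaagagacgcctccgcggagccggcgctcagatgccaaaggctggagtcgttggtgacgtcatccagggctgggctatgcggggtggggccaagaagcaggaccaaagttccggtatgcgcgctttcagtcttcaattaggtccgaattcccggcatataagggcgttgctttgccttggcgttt
HIST1H2BK and HIST1H2BH each hold the octamer once, starting 46 and 49 bases before the RefSeq start. None of the 3 motifs stands in the stretch shown for HIST1H4H, which says only that these letters are absent from that window.

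Library totals ran from 9390790 to 18262805 counts, so that 1 read was worth 0.0543 to 0.121 CPM (reads scaled to a common library size, with TMM factors). Of 13 markers of ovarian carcinoma epithelium, 11 averaged at least 1 CPM in the PEO1 prexasertib, COV362 prexasertib and COV362 DMSO groups and 12 in PEO1 DMSO. SOX17 had 0 counts in PEO1. The summed level of these markers was 3820 to 4472 CPM in PEO1 with prexasertib, against 7494 to 8718 CPM in PEO1 with DMSO, and 2377 to 3598 CPM in COV362 with prexasertib, against 2359 to 2907 CPM in COV362 with DMSO. Of 8 fibroblast markers LUM was at 0 in every group, and the list summed to 60.6 to 77.6 CPM in PEO1 with prexasertib, 220.0 to 292.9 CPM in PEO1 with DMSO, 11.3 to 17.04 CPM in COV362 with prexasertib and 14.95 to 23.5 CPM in COV362 with DMSO. The 9 immune markers summed to 33.7 to 41.2, 37.9 to 42.6, 50.9 to 62.9 and 31.3 to 42.5 CPM in the same 4 groups, and CD3D and MS4A1 were at 0 throughout. The part of these markers in the histone results was not tested.

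Summed over all 73 genes, histone RNA was more abundant with prexasertib than with DMSO in both lines. In PEO1 the sum was 270.6, 198.9 and 207.0 CPM with prexasertib, against 53.8, 41.3 and 41.2 CPM with DMSO, a ratio of means of 4.96. In COV362 it was 137.5, 105.6 and 131.3 CPM with prexasertib, against 36.2, 32.4 and 43.4 CPM with DMSO, a ratio of 3.34. Every prexasertib library lay above every DMSO library of its line. These sums are descriptions with no test.

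Each of the 5 types had a higher sum with prexasertib in both lines, and the ratio of means differed between them. In PEO1 H2B was at 137.5 ± 22.4 CPM with prexasertib and 21.4 ± 1.09 CPM with DMSO (SD, n = 3 each), a ratio of 6.42. H2A had a ratio of 4.18, H4 of 3.83, H1 of 3.71 and H3 of 2.36. In COV362 H2B was at 72.2 ± 11.01 CPM with prexasertib and 22.5 ± 3.24 CPM with DMSO, a ratio of 3.22. H4 had a ratio of 4.35, H2A of 3.78, H1 of 3.45 and H3 of 2.15. Single genes weighed heavily in some ratios, so a ratio does not describe every gene of its type. In PEO1, HIST1H1C held 33.5 of 41.1 CPM of H1 with prexasertib and 5.63 of 11.1 CPM with DMSO. HIST1H2BK held 73.5 of the 137.5 CPM of H2B there with prexasertib and 4.80 of 21.4 CPM with DMSO. In COV362, HIST1H1C held 31.0 of 32.1 and 8.47 of 9.30 CPM of H1, and HIST1H4H 4.75 of 6.57 and 0.487 of 1.51 CPM of H4. H2B made up 61.0% of all histone CPM in PEO1 with prexasertib, against 47.1% with DMSO, and 57.9% in COV362 with prexasertib, against 60.2% with DMSO. H3 was the least abundant type in each of the 4 groups, at 7.08 ± 1.64 CPM in PEO1 with prexasertib, 3.002 ± 1.21 CPM in PEO1 with DMSO, 1.89 ± 0.0166 CPM in COV362 with prexasertib and 0.882 ± 0.158 CPM in COV362 with DMSO.

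**Figure D1:**
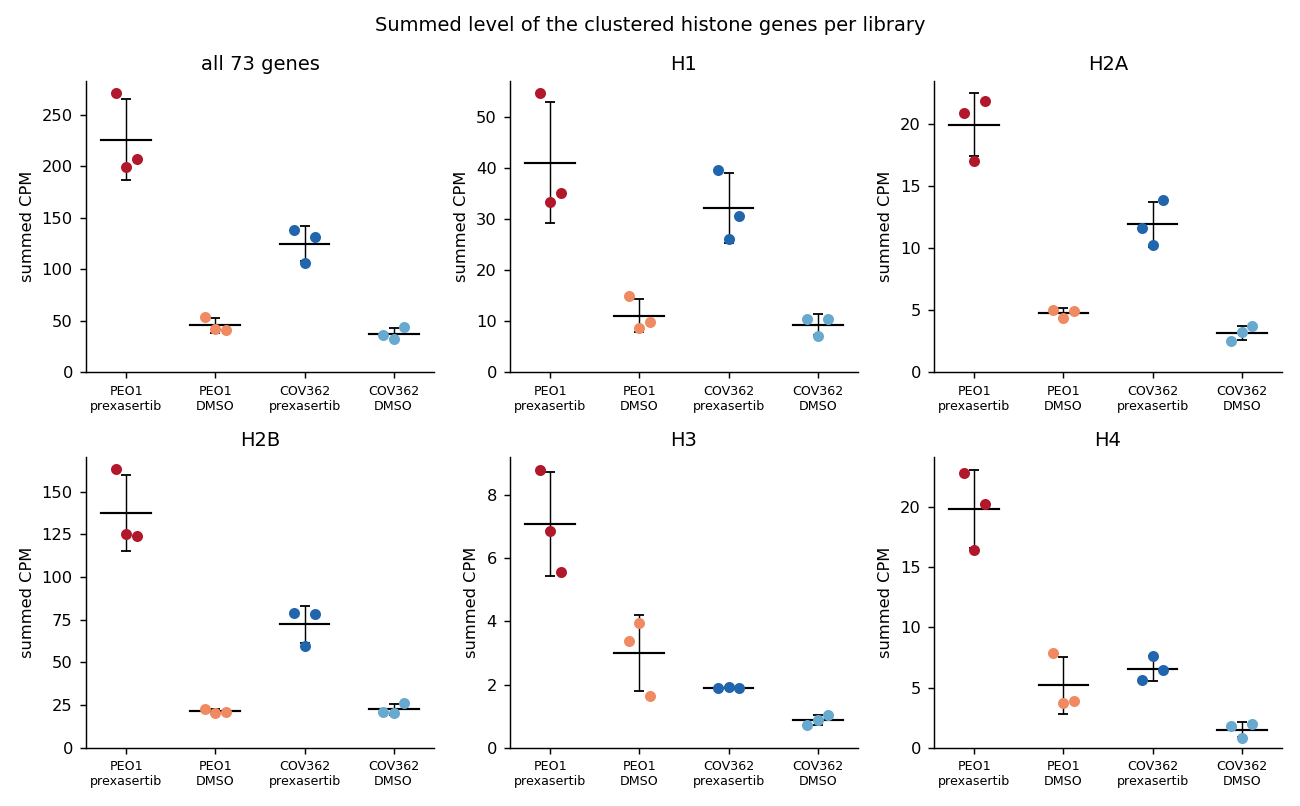
Summed CPM of all 73 genes and of each histone type, with 1 point per library, the mean as a bar and the SD as whiskers. In every panel the 3 prexasertib points of a line lie above its 3 DMSO points, and H2B has the highest sums among the types.

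A few genes carried much of this RNA. Per kilobase of exon, HIST1H2BK and HIST1H1C, a linker histone gene, stood at the top in PEO1 with prexasertib (87.7 ± 20.2 and 45.8 ± 12.8 CPM per kilobase), and in COV362 with prexasertib (48.1 ± 12.01 and 42.4 ± 8.67). In COV362 with DMSO they also led, at 17.8 ± 2.92 and 11.6 ± 2.39 CPM per kilobase. In PEO1 with DMSO the order was different, with HIST1H2BH first at 14.6 ± 1.53, HIST1H1C at 7.70 ± 2.29 and HIST1H2BK at 5.72 ± 0.490 CPM per kilobase. Below them in PEO1 with prexasertib came HIST1H2BG (21.2 ± 5.43), HIST1H2BJ (19.4 ± 0.206) and HIST1H4H (19.2 ± 2.71), whose levels do not differ beyond their spread. In COV362 with prexasertib HIST1H2BD (14.2 ± 1.74), HIST1H2AC (12.8 ± 3.69), HIST1H4H (12.7 ± 1.93) and HIST1H2BJ (12.2 ± 3.06) likewise overlapped. The 3 genes with most counts held 53.2% of histone CPM in PEO1 with prexasertib, against 36.6% with DMSO, and 67.02% in COV362 with prexasertib, against 70.1% with DMSO.

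In PEO1, prexasertib raised 21 of the 33 histone genes that passed the filter on low counts, and lowered none at an adjusted p under 0.05 (edgeR's quasi-likelihood test, Benjamini-Hochberg over 14498 genes). At an unadjusted p under 0.05, 22 were higher and 1, HIST1H2BH, was lower. Over all genes tested, 14.7% were called higher and 14.6% lower. Most of the 14 H2B genes were among them (12), with 3 of 5 H2A, 4 of 7 H4, 1 of 3 H3 and 1 of 4 H1 genes. The median log2 fold change of the 33 was 2.06, against 0.01 over all genes tested. HIST1H4D, HIST1H4F, HIST1H2BM and HIST1H2BO, all called, reached the count limit for expression only in PEO1 prexasertib libraries. HIST3H2A, HIST1H2BF and HIST1H2BN, also called, reached it only in prexasertib libraries of both lines. Kept by the filter through treated libraries, all of these genes could hardly be called lower. The 21, the counts of H2A, H2B and H4 genes and the median are thus partly set by the filter. With no filter, 19 of 62 histone genes were called higher and 0 lower, with a median of 1.38. Of all genes tested, 8.87% were then called higher and 11.4% lower. HIST2H2AC was expressed but did not pass the filter, and was at 0.940, 0.549 and 1.09 CPM with prexasertib, against 0.522, 0.543 and 0.220 CPM with DMSO.

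HIST1H2BK (chr6:27138293-27146858, minus strand, 2 exons) had 93.1, 64.2 and 63.3 CPM in PEO1 with prexasertib, against 4.50, 5.27 and 4.62 CPM with DMSO. The groups were far apart, and the counts behind them were 1585, 1169 and 1049, against 69, 97 and 84. Its log2 fold change was 3.93 ± 0.24 (SE), or 15.3-fold, with an adjusted p of 2.01e-07. HIST1H2BJ (chr6:27132316-27132796, minus strand) had 9.22, 9.34 and 9.42 CPM with prexasertib, against 0.783, 0.869 and 0.825 CPM with DMSO, so that neither group varied much (log2 fold change 3.48 ± 0.29, adjusted p = 4.18e-06). HIST1H2BG (chr6:26216201-26216644, minus strand) had 11.8, 6.98 and 9.42 CPM with prexasertib, against 1.11, 1.25 and 0.935 CPM with DMSO. It rose by 3.09 ± 0.31 on the log2 scale (adjusted p = 1.77e-05), and the groups did not overlap. HIST1H2BD, another gene with a second exon in the counted model (chr6:26158121-26171348, plus strand), had 15.1, 12.7 and 11.05 CPM with prexasertib, against 1.31, 1.85 and 2.26 CPM with DMSO. The groups did not overlap (log2 fold change 2.83 ± 0.30, adjusted p = 2.61e-05).

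Other H2B genes rose with fewer reads behind them. HIST1H2BB had 4.05, 3.79 and 2.23 CPM with prexasertib, against 0.392, 0.543 and 0 CPM with DMSO (log2 fold change 3.41 ± 0.77, adjusted p = 0.00908). HIST1H2BO had 1.88, 1.54 and 1.99 CPM with prexasertib, against 0.326, 0.0543 and 0.220 CPM with DMSO (3.16 ± 0.63, adjusted p = 0.00232). In both the groups lay apart, but the DMSO values rest on 10 reads or fewer a library. HIST2H2BE (chr1:149884460-149886682, minus strand), with the longest counted model among the expressed genes (2223 bases), had 7.69, 8.96 and 8.33 CPM with prexasertib, against 2.74, 1.30 and 1.27 CPM with DMSO (2.24 ± 0.32, adjusted p = 0.000230). Of the remaining called H2B genes, HIST1H2BF changed by 3.22, HIST1H2BM by 2.52, HIST1H2BN by 2.06, HIST2H2BF by 1.51 and HIST1H2BC by 1.32 on the log2 scale. HIST1H2BC had 4.40, 3.63 and 3.50 CPM with prexasertib, against 1.44, 1.25 and 1.92 CPM with DMSO. HIST2H2BF overlaps FCGR1A, so its reads are uncertain. These low calls were not firm except that of HIST1H2BC. When each of the 12 libraries was left out in turn, the call ended in 10 cases for HIST1H2BM, which DESeq2 did not call either, and in all 6 that left out a PEO1 library for HIST2H2BF. It ended in 4 cases for HIST1H2BN (PEO1 DMSO or prexasertib replicate B or C) and in 3 for HIST1H2BF (PEO1 DMSO replicate B or C, or PEO1 prexasertib replicate C).

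HIST1H2BH (chr6:26251651-26252075, plus strand) was not raised. It had 4.11, 2.86 and 4.16 CPM with prexasertib, against 6.72, 5.48 and 6.43 CPM with DMSO in PEO1, so all treated libraries lay below all DMSO libraries. Its log2 fold change of −0.74 ± 0.31 did not pass the test (adjusted p = 0.102), whereas DESeq2, limma-voom, the fit to the 6 PEO1 libraries alone and the replicate block with a length correction each called it lower. HIST1H2BI was the other H2B gene not called, at 2.41, 0.934 and 0.724 CPM with prexasertib, against 0.131, 0.380 and 0.880 CPM with DMSO.

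Among the H2A genes, HIST1H2AC (chr6:26124145-26124690, plus strand) had 5.05, 4.95 and 5.67 CPM with prexasertib, against 0.718, 0.651 and 0.440 CPM with DMSO in PEO1. HIST1H2AE had 9.75, 7.03 and 8.51 CPM, against 0.653, 1.03 and 1.43 CPM. Both rose with no overlap between the groups, HIST1H2AC 8.61-fold (adjusted p = 2.38e-05) and HIST1H2AE 7.998-fold (adjusted p = 0.000168), with SE of 0.33 and 0.41 on the log2 scale. HIST3H2A was called at 1.98, which ended without PEO1 DMSO replicate A or C or PEO1 prexasertib replicate C, and HIST1H2AM and HIST1H2AG were not called, at 0.81 and 0.69. Among the H4 genes, HIST1H4H (chr6:26285126-26285499, minus strand) had 8.34, 6.65 and 6.52 CPM with prexasertib, against 0.849, 0.489 and 0.330 CPM with DMSO. The groups were well apart (log2 fold change 3.70 ± 0.42, adjusted p = 4.22e-05). HIST1H4F, HIST1H4D and HIST1H4E were called at 3.15, 2.47 and 2.10. Leaving out 1 library ended the call of HIST1H4F in 2 cases (PEO1 DMSO replicate B or C), of HIST1H4E in 2 (PEO1 DMSO replicate B or PEO1 prexasertib replicate A) and of HIST1H4D in 5, all of them PEO1 libraries. HIST4H4, HIST1H4C and HIST1H4B had positive values of 1.39, 1.15 and 0.88 that did not pass.

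The H3 and H1 genes split within their type. HIST1H3D had the highest mean CPM of the H3 genes over the 12 libraries. Per kilobase of exon it stood below HIST1H3B (0.780 against 1.12 CPM per kilobase). In PEO1 it had 1.47, 1.48 and 0.845 CPM with prexasertib, against 0.261, 0.651 and 0.220 CPM with DMSO. It was called at 1.71 ± 0.58 (adjusted p = 0.0379), but leaving out 1 library ended that call in 8 of 12 cases, with adjusted p up to 0.161. Its model overlaps that of HIST1H2AD, which had 0 counts everywhere. HIST1H3B and HIST1H3C were at 0.72 and 0.38 and did not pass. HIST1H1C (chr6:26055740-26056471, minus strand) had 44.3, 27.7 and 28.6 CPM with prexasertib, against 7.44, 4.13 and 5.33 CPM with DMSO. It was clearly higher in all treated libraries (2.58 ± 0.27, adjusted p = 2.38e-05). The other H1 genes HIST1H1D, HIST1H1E and HIST1H1B were at 0.64, 0.63 and −0.07, and none of them passed.

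**Figure D2:**
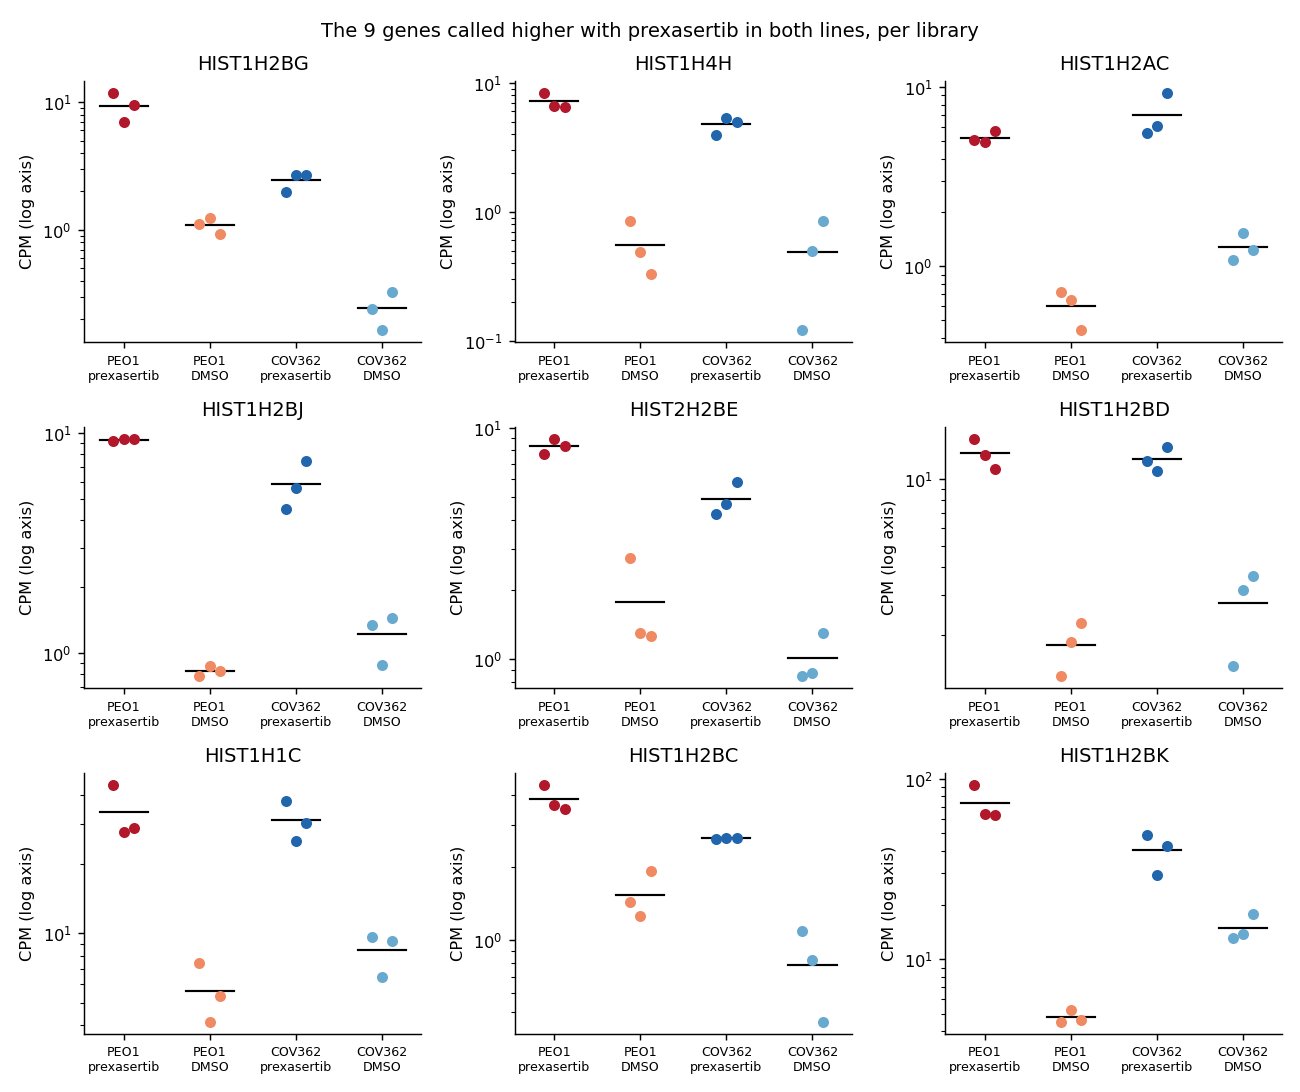
CPM per library on a log axis for the 9 genes called higher with prexasertib in both lines, with 1 point per library and the mean as a bar. In each panel the prexasertib points of a line lie above its DMSO points, and HIST1H2BK has the widest gap in PEO1 (15.3-fold) and the smallest in COV362 (2.69-fold).

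In COV362, prexasertib raised 9 of the 33 tested histone genes and lowered none, where 0.607% of all genes tested were called higher and 0.221% lower. The 9 were 6 H2B genes and 1 gene each of H2A, H4 and H1, and 0 of 3 H3 genes. At an unadjusted p under 0.05, 17 of the 33 were higher and 0 lower, and DESeq2 and limma-voom also called 0 lower. The 6 genes HIST1H2BB, HIST1H2BH, HIST1H2BI, HIST1H2BM, HIST1H3C and HIST1H4F had 0 counts in all COV362 libraries, which gives no estimate. Over the 27 others the median log2 fold change was 1.88, or 1.79 with HIST4H4, which had 0 counts in COV362 DMSO, put at its lower bound. Over all genes tested the median was −0.01. Of the 17 above, HIST3H2A, HIST1H2BF, HIST1H2BN and HIST1H2BO reached the count limit for expression only in prexasertib libraries. Kept by the filter through these, they could hardly be lower. The 17 and the median of 1.88 are thus partly set by the filter. With no filter, 10 of 62 were called higher and 0 lower (median 0.47, genes with 0 counts in COV362 included). The shares of all genes tested were then 0.538% higher and 0.211% lower.

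HIST1H2BG had 1.97, 2.71 and 2.71 CPM in COV362 with prexasertib, against 0.242, 0.164 and 0.326 CPM with DMSO. It had the largest called change (3.32 ± 0.41 on the log2 scale, adjusted p = 0.00230), with 2 to 5 reads in each DMSO library. HIST1H2BJ had 4.50, 5.61 and 7.42 CPM with prexasertib, against 1.33, 0.876 and 1.43 CPM with DMSO (2.29 ± 0.29, adjusted p = 0.00247). HIST1H2BD had 12.04, 10.9 and 13.8 CPM, against 1.45, 3.18 and 3.65 CPM (2.09 ± 0.29, adjusted p = 0.00442). In all 3 genes the treated libraries lay above every DMSO library.

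HIST2H2BE had 4.26, 4.69 and 5.83 CPM with prexasertib, against 0.847, 0.876 and 1.30 CPM with DMSO in COV362 (2.26 ± 0.35, adjusted p = 0.00739). HIST1H2BC had 2.62, 2.65 and 2.65 CPM, against 1.09, 0.822 and 0.456 CPM (1.79 ± 0.37, adjusted p = 0.0392). Both groups of values lay apart, but the calls were not firm. Without COV362 DMSO replicate B or COV362 prexasertib replicate C, HIST2H2BE had adjusted p of 0.0550 and 0.0504. HIST1H2BC kept its call only without COV362 DMSO replicate A, and the 11 other omissions gave adjusted p of 0.0542 to 0.163.

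HIST1H2BK, already the most abundant histone gene of COV362, had 49.1, 29.4 and 42.6 CPM with prexasertib, against 13.2, 13.9 and 17.7 CPM with DMSO. It rose by 1.43 ± 0.21 on the log2 scale, or 2.69-fold (adjusted p = 0.00660), the smallest of the 9 called changes. HIST1H2AC had 5.57, 6.11 and 9.30 CPM with prexasertib, against 1.09, 1.53 and 1.24 CPM with DMSO (2.41 ± 0.30, adjusted p = 0.00247). HIST1H4H had 3.93, 5.31 and 5.003 CPM, against 0.121, 0.493 and 0.847 CPM (3.14 ± 0.43, adjusted p = 0.00442). HIST1H1C had 37.8, 25.2 and 30.1 CPM, against 9.68, 6.46 and 9.25 CPM (1.88 ± 0.27, adjusted p = 0.00442). No treated value of these genes reached down to a DMSO value.

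HIST1H3D had 1.23, 1.05 and 0.942 CPM with prexasertib, against 0, 0.274 and 0.196 CPM with DMSO in COV362. Its groups were apart, and its log2 fold change of 2.50 ± 0.67 did not pass (adjusted p = 0.108). Several further genes with 13 or fewer reads in each DMSO library had large values that did not pass, among them HIST1H2BF at 3.47, HIST1H2BO at 3.27, HIST1H2BN at 2.25, HIST1H4E at 2.25 and HIST1H2AE at 2.02. HIST4H4 was at least 2.80-fold higher with prexasertib when COV362 DMSO is put at its floor of 3 counts in all, and was not called. HIST2H2BF was at −1.18 and HIST1H4D at −1.32, and neither passed.

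Same-lettered COV362 libraries deviated together for A and B but not clearly for C, and the labels do not say what the letters stand for. With the letter as a block 14 genes were called higher in COV362, where 5.74% of all genes tested were. The 5 gained were HIST1H3D, HIST1H2BF, HIST1H4E, HIST1H2AE and HIST1H2BN. In a fit to the 6 COV362 libraries alone, 12 histone genes passed the filter and 1, HIST1H1C, was called, beside 0.0601% of the 13302 genes tested. The other 8 had adjusted p of 0.0661 to 0.287 there.

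All 9 genes called in COV362 were also called in PEO1, 12 were called in PEO1 and not in COV362, and 12 in neither line. Over the 27 genes with a count in COV362 the log2 fold changes of the lines had a Pearson correlation of 0.49, and of 0.68 over the 18 with 30 or more counts in COV362. These are correlations across genes, which share the libraries and the fit, and are given as a description. A call in PEO1 without a call in COV362 does not show a difference between the lines, and the difference itself was tested.

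**Figure D3:**
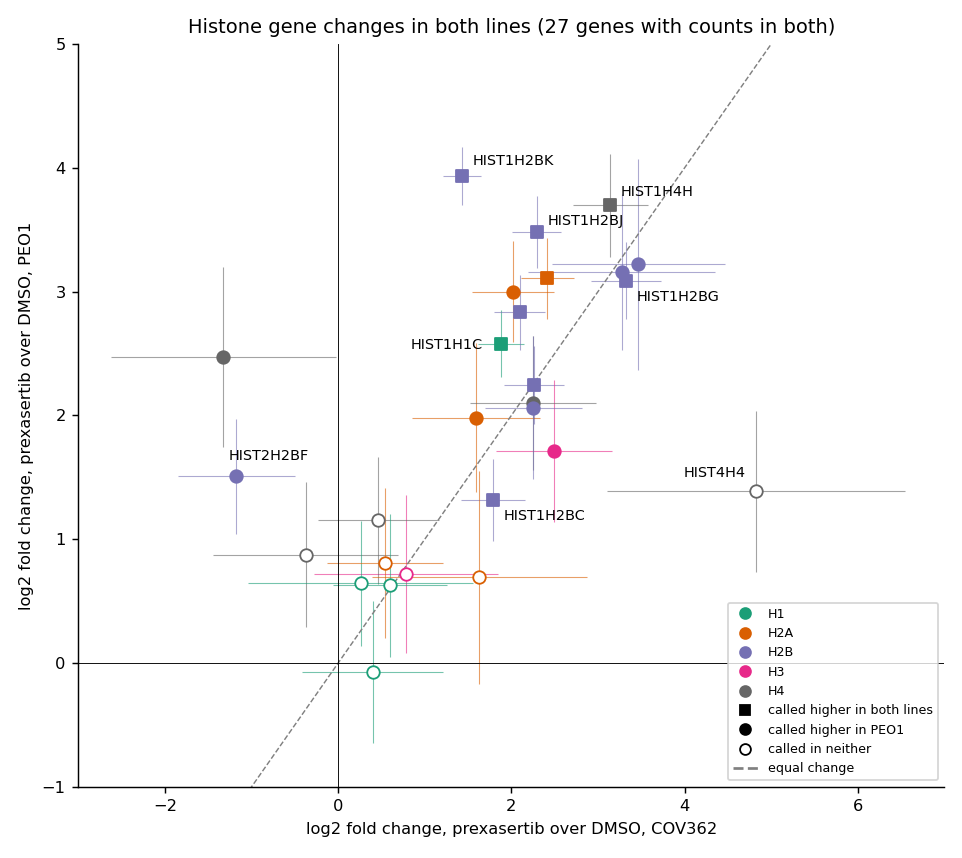
Log2 fold change of prexasertib over DMSO in PEO1 (vertical) against COV362 (horizontal) for the 27 tested genes with counts in both lines, coloured by type, with SE bars and a dashed line of equal change. HIST1H2BK lies farthest above the line among the genes called in both, and the horizontal position of HIST4H4, with 0 counts in COV362 DMSO, is a fitted value and no bound.

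Of the 27 genes with counts in COV362, HIST1H2BK was the only one called for a different response between the lines in the fit of the 4 group means, where 3.14% of all genes tested had a higher change in PEO1 and 2.97% a lower one. Its log2 fold change was 2.51 ± 0.31 larger in PEO1 than in COV362 (adjusted p = 0.000915), at 15.3-fold in PEO1 and 2.69-fold in COV362. It ended at 73.5 ± 16.9 CPM in PEO1 with prexasertib and 40.4 ± 10.1 CPM in COV362 with prexasertib, and had 4.80 ± 0.411 CPM in PEO1 with DMSO and 14.9 ± 2.45 CPM in COV362 with DMSO. Thus PEO1 was lower than COV362 with DMSO and higher with prexasertib. At an unadjusted p under 0.05, 4 genes had a larger change in PEO1 and 0 a smaller one, including HIST2H2BF at 2.68 (adjusted p = 0.0666), HIST1H4D at 3.80 (adjusted p = 0.143), which had 7 reads in all of COV362, and HIST1H2BJ at 1.19 (adjusted p = 0.0935). The difference was 0.69 for HIST1H1C and for HIST1H2AC, 0.55 for HIST1H4H, −0.02 for HIST2H2BE and −0.24 for HIST1H2BG, and none of these passed. With the replicate block 4 differences were called, those of HIST1H2BK, HIST2H2BF, HIST1H1C and HIST1H2BJ. Of all genes tested, 17.8% then had a higher change in PEO1 and 16% a lower one. HIST2H2BF and HIST1H1C were also called with the length correction alone, where 4.83% of all genes tested had a higher change and 6.43% a lower one. A p above the threshold does not show that the lines responded alike. The SE ran from 0.37 to 0.62 for the differences of HIST1H1C, HIST1H2AC, HIST1H4H, HIST2H2BE and HIST1H2BG.

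With DMSO alone, 14 histone genes were higher in PEO1 than in COV362 and 2 were lower, where 29.1% of all genes tested were higher and 28.6% lower. This comparison shares its libraries with the drug comparisons. Among the genes called higher, HIST4H4, HIST1H4B, HIST1H3B, HIST1H2BB, HIST1H3C, HIST1H1D, HIST1H2BH, HIST1H2BI and HIST1H2BM reached the count limit for expression only in PEO1 libraries. Kept by the filter through that line, they could hardly be called lower. Fitted alone, 32 histone genes passed the filter in PEO1 and 12 in COV362. The split, counts by type and median are thus partly set by the filter. With no filter, 15 of 62 were called higher and 3 lower (median 1.07), where 20.4% of all genes tested were higher and 20.3% lower. HIST1H2BH had 6.72, 5.48 and 6.43 CPM in PEO1 and 0 counts in every COV362 library, and was at least 86.7-fold higher when COV362 DMSO is put at its floor of 3 counts in all. It was thus the most abundant histone gene of PEO1 with DMSO and undetected in COV362 (adjusted p = 1.71e-06). HIST1H1D had 4.44, 3.20 and 1.48 CPM in PEO1, against 0, 0 and 0.196 CPM in COV362 (5.26 ± 0.82, adjusted p = 9.02e-05). HIST1H1B had 1.89, 1.09 and 2.14 CPM in PEO1, against 0.484, 0.0548 and 0.391 CPM in COV362 (2.58 ± 0.71, adjusted p = 0.00660). Neither H1 gene overlapped between the lines.

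Beside HIST1H2BH, the called genes HIST1H3C, HIST4H4, HIST1H2BI, HIST1H2BB and HIST1H2BM also had 0 counts in COV362 DMSO. They were at least 9.67, 8.68, 6.47, 4.35 and 3.39-fold higher in PEO1. HIST1H2BB and HIST1H2BM overlapped between the lines, since PEO1 DMSO replicate C also had 0 counts. Their calls ended with limma-voom, without the A libraries and in 4 and 9 of the 12 omissions of 1 library. HIST1H3B, HIST1H4B and HIST1H4E were at 2.73, 2.60 and 1.97 on the log2 scale. The call of HIST1H3B ended without COV362 DMSO replicate B or PEO1 DMSO replicate A, that of HIST1H4B without PEO1 DMSO replicate A, and that of HIST1H4E without COV362 DMSO replicate B or C or PEO1 DMSO replicate A or C. The median of the 33 was 1.16, or 1.09 with the 7 genes at 0 in COV362 DMSO put at their bounds, against −0.01 over all genes tested.

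HIST1H4C had 2.48, 1.57 and 1.37 CPM in PEO1 with DMSO, against 0.968, 0.110 and 0.391 CPM in COV362 with DMSO, with no overlap. HIST1H2BG was higher in PEO1 with DMSO (2.16 ± 0.43, adjusted p = 0.000747), as were HIST1H4C (2.09 ± 0.63, adjusted p = 0.0117) and HIST1H2BC (1.01 ± 0.38, adjusted p = 0.0330). For HIST1H2BC the call ended without COV362 DMSO replicate B or C or PEO1 DMSO replicate A or C, and for HIST1H4C without COV362 DMSO replicate B (adjusted p = 0.0572). The genes lower in PEO1 were HIST1H2BK and HIST1H2AC. HIST1H2BK had 4.50, 5.27 and 4.62 CPM in PEO1 with DMSO, against 13.2, 13.9 and 17.7 CPM in COV362 with DMSO (−1.64 ± 0.23, adjusted p = 3.18e-05). HIST1H2AC had 0.718, 0.651 and 0.440 CPM, against 1.09, 1.53 and 1.24 CPM (−1.12 ± 0.35, adjusted p = 0.0147). The call of HIST1H2AC ended with limma-voom, with the length correction with or without the block, and without COV362 DMSO replicate B or PEO1 DMSO replicate C. By type, 4 of 7 H4, 6 of 14 H2B, 2 of 3 H3, 2 of 4 H1 and 0 of 5 H2A genes were higher in PEO1. Without COV362 DMSO replicate B, 8 of 43 histone genes tested were called higher and 3 lower, beside 27.1% and 26.2% of all genes tested.

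Along the chromosome 6 clusters, called and uncalled genes were neighbours. Genes not called in PEO1, of every type, stood among the called ones over the 29 tested genes there. HIST1H2BH and HIST1H2BI lie between HIST1H4F and HIST1H4H, which rose in PEO1.

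**Figure D4:**
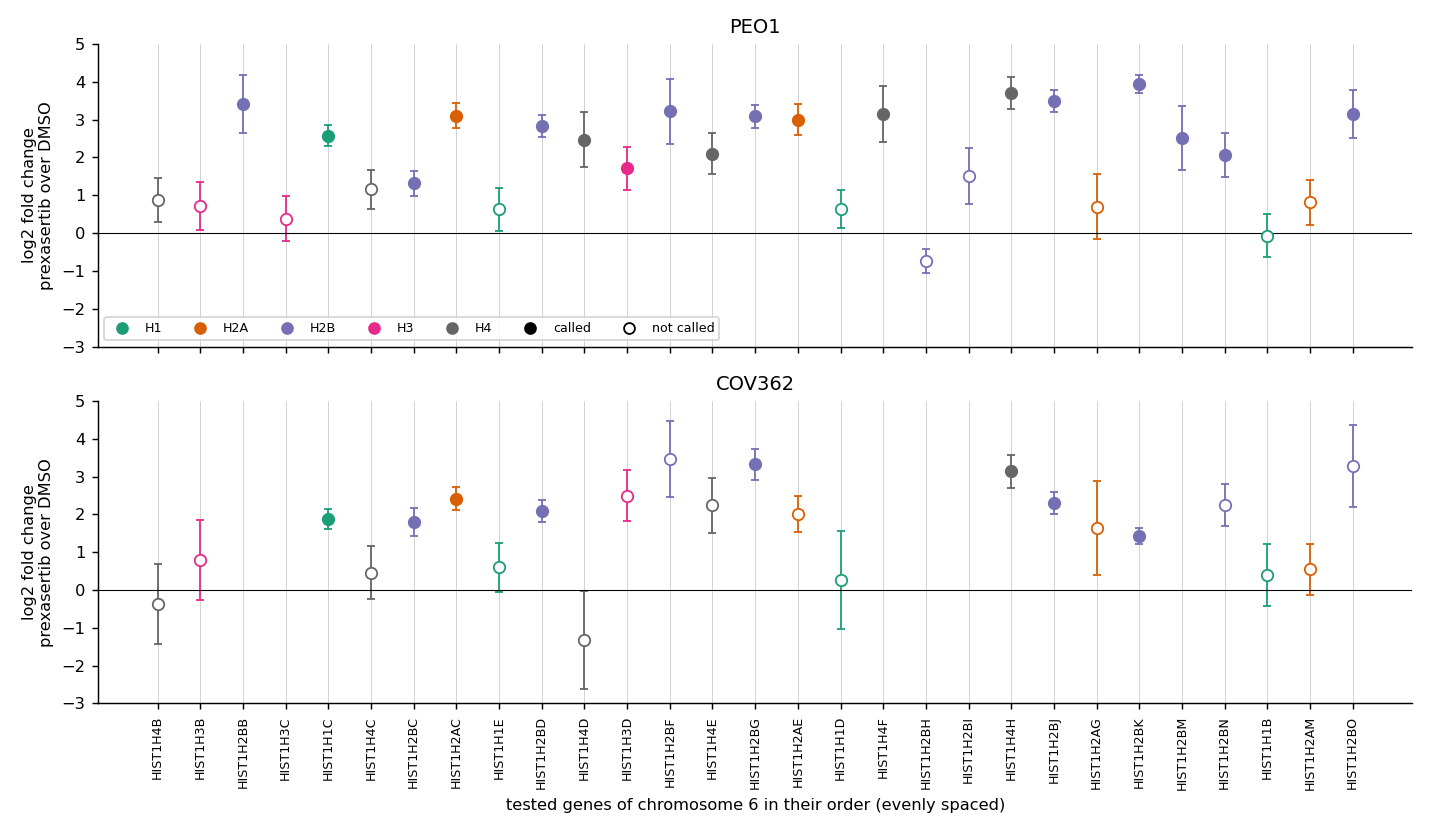
Log2 fold change of prexasertib over DMSO with SE for the 29 tested genes of chromosome 6 in their order along the chromosome, PEO1 above and COV362 below, filled where called. The gaps in COV362 are the 6 genes with 0 counts in that line, and HIST1H2BH is the lowest point in PEO1.

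Many H2A and H2B genes are arranged as divergent pairs that share the stretch between their starts. There were 12 such pairs, with 224 to 347 bases between the starts, 10 with at least 1 expressed partner and 5 with both expressed. In HIST1H2AH/HIST1H2BK, whose shared stretch is printed above, HIST1H2AH was at 0.350 CPM in PEO1 with prexasertib and 0.302 CPM with DMSO (means of 3), while HIST1H2BK was at 73.5 and 4.80 CPM. In COV362 HIST1H2AH was at 0.0479 CPM with prexasertib and 0.109 CPM with DMSO. In HIST1H2AG/HIST1H2BJ, HIST1H2AG was at 0.820 CPM with prexasertib and 0.519 CPM with DMSO, and HIST1H2BJ at 9.33 and 0.826 CPM. In both pairs the H2B gene was called and its partner was not called or not tested. In HIST1H2AE/HIST1H2BG both genes rose in PEO1, to 8.43 CPM, against 1.04 CPM with DMSO, and to 9.40 CPM, against 1.10 CPM. In HIST1H2AC/HIST1H2BC both were called in both lines.

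In the other pairs with an expressed partner the calls were as follows. HIST1H2BO was called in PEO1 and HIST1H2AM was not. HIST2H2BE was called in both lines, and HIST2H2AC was not tested. HIST1H2BF, HIST1H2BM and HIST1H2BN were called in PEO1, and their partners HIST1H2AD, HIST1H2AJ and HIST1H2AK averaged 0, 0.291 and 0.153 CPM in PEO1 with prexasertib, against 0, 0.283 and 0.0548 CPM with DMSO. In HIST3H2A/HIST3H2BB, HIST3H2A was called in PEO1, at 1.31 CPM with prexasertib and 0.323 CPM with DMSO. HIST3H2BB, not expressed by the rule and not tested, averaged 0.993 CPM with prexasertib and 0.226 CPM with DMSO. Each partner was counted on its own model without strand. The model of HIST1H2AD lies wholly within that of HIST1H3D, and how reads in both were counted is not given in the sources used here, so its 0 is no measure of its RNA.

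Promoter letters were set beside the calls. Of the tested genes with a RefSeq promoter, the octamer stood in 10 of 18 called higher in PEO1 and in 3 of 10 not called. Among the uncalled was HIST1H2BH, with an octamer in about the same place as in HIST1H2BK. In COV362 it stood in 4 of 7 called and 9 of 21 not called. These are counts over small groups of related genes and were not tested.

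The counted models were short. The expressed genes had 357 to 2223 bases of exon (median 463), and only HIST2H2BF and HIST2H2BE had 1000 or more. Both were called in PEO1 and HIST2H2BE in COV362, beside 19 of 31 and 8 of 31 shorter models. With the limit at 600 bases, 6 of 9 long models were called in PEO1 and 4 of 9 in COV362, beside 15 of 24 and 5 of 24 shorter ones. GENCODE v29 lists a transcript that ends 100 or more bases past the counted model for 12 of the 33 tested genes, such as HIST1H2BG (1042 bases), HIST1H2BJ (6419 bases) and HIST1H4H (7517 bases), as genomic distances. Of these 12, 9 were called higher in PEO1 and 5 in COV362, and of the 21 others 12 and 4. The CPM covers the counted exons only, not such extensions. HIST1H2BK and HIST1H2BD already include a second exon in the counted model.

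Genes that handle histone RNA were set beside the histone genes. For this list and those below, the shares of all genes tested in PEO1 were 14.7% higher and 14.6% lower (median 0.01). In COV362 they were 0.607% and 0.221% (median −0.01). No list was tested as a set. Of 28 tested genes of histone mRNA processing, 5 rose and 2 fell in PEO1 (median log2 fold change 0.11), and none was called in COV362 (median 0.00, edgeR), where 4 had an unadjusted p under 0.05, 3 of them higher. SLBP, which binds the stem-loop, was at 158.9 ± 13.4 CPM in PEO1 with prexasertib and 145.6 ± 7.64 CPM with DMSO, and at 159.8 ± 7.06 CPM in COV362 with prexasertib and 165.7 ± 15.7 CPM with DMSO. Neither difference passed (0.13 ± 0.12, adjusted p = 0.441, and −0.05 ± 0.12, adjusted p = 0.924). ZNF473, a zinc finger protein of the histone 3′-end processing machinery, rose by 1.15 ± 0.15 in PEO1 (adjusted p = 9.81e-05) and was at 0.46 ± 0.15 in COV362 (adjusted p = 0.185). NCBP2, a subunit of the nuclear cap-binding complex, rose by 0.85 ± 0.11 in PEO1, and ZCCHC6, a uridylyl transferase, by 0.97 ± 0.30.

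Of 20 tested genes of histone gene transcription, 4 rose and 3 fell in PEO1 (median 0.24), and none was called in COV362 (median −0.16), where 4 had an unadjusted p under 0.05, all of them lower. NPAT was at 37.5 ± 8.03 CPM in PEO1 with prexasertib and 20.7 ± 4.38 CPM with DMSO, a log2 fold change of 0.86 ± 0.39 that did not pass (adjusted p = 0.117). In COV362 it was at −0.34 ± 0.40 (adjusted p = 0.810). HINFP, which acts on H4 promoters, rose by 0.59 ± 0.15 and NFYA, a subunit of NF-Y, by 0.60 ± 0.13 in PEO1, whereas E2F1 fell by 0.68 ± 0.22. CCNE2, a cyclin of S phase entry, had the lowest p of the list in COV362 and was at −0.90 ± 0.26 (adjusted p = 0.134). Of 18 genes of the general poly(A) machinery, 5 rose and 1 fell in PEO1 (median 0.20) and none was called in COV362 (median 0.05), with 0 higher and 1 lower unadjusted. PCF11, a termination factor, rose by 1.23 ± 0.26 and PAPOLG, a poly(A) polymerase, by 1.04 ± 0.25, and CPSF1 of the cleavage factor fell by 0.92 ± 0.23. PAPOLA was at −0.33 ± 0.14 in COV362 (adjusted p = 0.322).

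Of 23 tested S phase genes, 1 rose and 7 fell in PEO1 (median −0.28), and none was called in COV362 (median −0.17), where 5 had an unadjusted p under 0.05, all of them lower. They summed to 3366 to 3455 CPM in PEO1 with prexasertib, against 3440 to 3747 CPM with DMSO, and to 3748 to 3840 CPM in COV362 with prexasertib, against 4092 to 4313 CPM with DMSO. MCM5, a subunit of the replicative helicase, was at 48.6 ± 4.74 CPM in PEO1 with prexasertib and 91.8 ± 9.89 CPM with DMSO (−0.92 ± 0.14, adjusted p = 0.000465). CDT1, a licensing factor, fell by 0.86 ± 0.29 and UHRF1 by 0.80 ± 0.16. Of 25 histone chaperone and import genes, 1 rose and 7 fell in PEO1 (median −0.25), and none was called in COV362 (median −0.11), with 0 higher and 2 lower unadjusted. ASF1A, an H3-H4 chaperone, rose by 0.76 ± 0.14, whereas TONSL fell by 1.42 ± 0.23 and the importin IPO4 by 0.55 ± 0.15. MMS22L, the partner of TONSL, was at −0.46 ± 0.17 in COV362 (adjusted p = 0.273).

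The genes listed as replication-independent histones, most of which are expressed outside S phase with poly(A) tails, were set beside them last. Of 10 tested, 2 rose and 2 fell in PEO1 (median 0.17), and 2 rose in COV362 (median −0.07). H1F0, a linker histone known from cells that have stopped dividing, was at 645.1 ± 102.6 CPM in PEO1 with prexasertib and 334.6 ± 43.1 CPM with DMSO (0.95 ± 0.16, adjusted p = 0.000790). In COV362 it was at 101.3 ± 9.92 CPM with prexasertib and 52.1 ± 9.53 CPM with DMSO (0.96 ± 0.16, adjusted p = 0.0127). H2AFJ rose by 1.15 ± 0.25 in COV362 (adjusted p = 0.0498), H3F3B, which codes for H3.3, by 0.77 ± 0.14 in PEO1, and H2AFY2 fell by 1.09 ± 0.16 in PEO1. H2AFX, the variant phosphorylated at DNA breaks, was at −0.03 ± 0.30 in PEO1 (adjusted p = 0.962) and −0.19 ± 0.31 in COV362 (adjusted p = 0.876).

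Of the marker lists, 7 of 13 epithelial genes fell in PEO1 and none rose, with KRT19 at −1.80, MSLN at −1.16 and KRT8 at −1.10, and none was called in COV362, where CLDN4 was at 0.64 ± 0.15 (adjusted p = 0.0710). Of 4 tested fibroblast markers, THY1 fell by 1.92 in PEO1, and PDGFRA, at 0.212 CPM with prexasertib and 0 counts with DMSO, was at least 3.68-fold higher. Of 3 tested immune markers, ITGAM, at 1.57 CPM with prexasertib and 0.138 CPM with DMSO in PEO1, rose by 3.45, and CD14 fell by 1.64. No marker of these lists was called in COV362. At an unadjusted p under 0.05 there, 1 epithelial marker was higher and 4 lower, 0 fibroblast markers higher and 1 lower, and 2 immune markers higher and 0 lower. THY1 was at −0.95 (adjusted p = 0.202) and CD68 at 0.53 (adjusted p = 0.112). The part of these shifts in the histone values was not tested.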

How the data were processed

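RNA of 12 samples in 4 groups was sequenced. The library kit, TruSeq RNA Library Prep v2 per the labels' protocols, selects poly(A) RNA and keeps no strand. STAR, featureCounts 1.4.6 and Subread with hg38 are named in the submitters' processing notes. How reads that match several genes were counted is not given in the sources used here, and near-identical histone genes are uncertain for that reason: HIST2H4A and HIST2H4B, HIST2H3A and HIST2H3C, and HIST2H2AA3 and HIST2H2AA4 share a position in the table and had 0 counts. The authors deposited raw counts per gene with exon coordinates and the exon length in bases, an annotation value listed in the deposited table.

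Genes were filtered with filterByExpr (minimum count 10, minimum total 15), leaving 14498, and scaled by TMM. One fit of 4 group means (8 residual degrees of freedom) was tested with the quasi-likelihood F-test of edgeR 4.0.16 in R 4.3.3, with p-values adjusted by Benjamini-Hochberg over all genes tested and calls made under 0.05. The drug comparisons and the DMSO comparison share the 6 DMSO libraries. SD is over 3 libraries and SE is from the fit. DESeq2 1.42.0, limma 3.58.1 (voom) and other settings were alternatives, and the fit was tested on simulated data. The length correction took out of each library a smooth trend of its deviations from the gene means over exon length. The rank correlation of such deviations with exon length ran from −0.311 (COV362 prexasertib A) to 0.226 (PEO1 prexasertib B). With that correction 8 histone genes were called higher in COV362 and 21 in PEO1, where 1% and 16.1% of all genes tested were. The members, the 9 gene lists of 162 genes and the tests were chosen with earlier results of these data known. Genes named with values in every library were up to 10 called members with the largest absolute change in each comparison, among those averaging 1 CPM or more. To these were added the member of each type with the highest mean CPM and the partners of divergent pairs. Other members are named to account for all of them. From each list, the 3 called genes with the largest change, or the gene with the lowest p, were named, with SLBP, NPAT and H2AFX. A gene of the S phase list that this rule names in COV362 is not reported here. Same-lettered libraries deviated together in COV362 (correlations 0.133 to 0.423, against −0.429 to 0.138 for unlike letters). For letter C this was not clear, since prexasertib C was at 0.133 with DMSO C and 0.138 with DMSO B. In PEO1 it was less clear (0.0813 to 0.302, against −0.33 to 0.222 for unlike letters).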

Additional observations from a re-analysis of the deposited data

Results flagged for a closer look

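The response of HIST1H2BK to prexasertib differed between the lines by a test of the difference itself. Its log2 fold change was larger in PEO1 than in COV362 by 2.51 ± 0.31 (SE, adjusted p = 0.000915, edgeR's quasi-likelihood test over 14498 genes), and it was higher with prexasertib in every library of both lines. With DMSO it was lower in PEO1, at 4.80 ± 0.411 CPM, than in COV362, at 14.9 ± 2.45 CPM (SD, n = 3 each). With prexasertib it was at 73.5 ± 16.9 CPM in PEO1 and 40.4 ± 10.1 CPM in COV362.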

How the results depend on the processing

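No alternative reversed a result. The log2 fold changes of named genes and the counts of long models made 30 results, with 611 values under the alternatives. Of these, 568 kept their direction and side of the threshold, 38 no longer passed, 3 newly did, and the counts of long models with the 600-base limit moved. The 10 changes in PEO1 that were named for their size passed under every alternative run. In COV362, 9 calls became 14 with the replicate block and 1 in the 6 libraries of that line alone, where fewer libraries share the estimate of the spread. Without the A libraries, 10 and 19 genes were called higher in COV362 and PEO1, where 1.25% and 17.1% of all genes tested were. Leaving out 1 library gave 7 to 9 calls in COV362 and 15 to 25 in PEO1, with 0 lower calls in either. HIST1H2BH alone made the 1 lower call in PEO1 with DESeq2, limma-voom, the 6 PEO1 libraries alone and the replicate block with length correction. For the difference between the lines, 1 call became 2 with no filter, without the A libraries, without COV362 DMSO replicate B, and without COV362 prexasertib replicate A or B, 3 with the length correction, 4 with the replicate block and 5 with the block and length correction, and leaving out 1 library gave 1 to 2. Where there were 2, the added gene was HIST2H2BC. Of all genes tested, 4.83% had a higher change in PEO1 with the length correction, 17.8% with the block and 15.4% with both. In the DMSO comparison, 14 higher calls became 9 without the A libraries and ranged from 8 to 16 when 1 library was left out, and 2 lower calls became 1 with limma-voom and with either length correction, 4 without the A libraries and 1 to 3 with 1 library left out, the 1 without PEO1 DMSO replicate C. Without the A libraries, 30.9% of all genes tested were called higher and 29.9% lower in that comparison. The block changed the count in PEO1, where pairing by letter was less clear, to 22 higher, beside 25.8% of all genes tested. In the DMSO comparison the block gave 14 higher and 3 lower, beside 34.3% and 34% of all genes tested. The cause was not tested. With the 600-base limit, 6 and 4 long models were called in PEO1 and COV362 in place of 2 and 1. The tested H3 and H4 genes other than HIST1H4C had at most 20 reads in any DMSO library.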

Other observations

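Some genes below the limit for expression had more reads with prexasertib in PEO1. They were chosen after their values were seen. HIST1H2AB had 1.06, 0.604 and 0.362 CPM with prexasertib, against 0.131, 0 and 0.0550 CPM with DMSO. HIST1H3E had 0.763, 0.495 and 0.785 CPM with prexasertib, against 0.131, 0 and 0 CPM with DMSO. HIST2H2BC had 0.235, 0.934 and 0.845 CPM with prexasertib, against 0 counts with DMSO. All 3 were called higher in PEO1 when no filter on low counts was used. HIST3H2BB had 1.23, 1.26 and 0.483 CPM with prexasertib, against 0.131, 0.217 and 0.330 CPM with DMSO.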
